A study of Mus musculus with 9 samples.

Results

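The 34 genes described here are marker genes of oligodendrocytes and of the myelin they make, taken by symbol from a fixed list, and they were 34 of the 54532 genes in the deposited expression table. Each symbol matched 1 gene. Of these, 27 belong to the mature, myelinating cell. The other 7, called lineage and precursor genes here, are transcription factors of the lineage and surface genes of its precursors. Some of these factors, named below, belong to the maturing cell, so this group is not confined to early stages. RNA was sequenced from the brain cortex of adult male mice, 8 to 12 weeks old, of the strains C57BL6/J (B6), C3H/HeJ (C3H) and WSB/EiJ (WSB), with 3 mice per strain and 9 libraries in all. None of the mice carried a labelled treatment or engineered allele, and each library is whole dissected cortex, so every cell type of the tissue contributes to each value. The study compared transcript levels in the cortex to find genes that differ between strains with different outcomes after an ischemic stroke. Values are FPKM, read counts scaled by gene length and by a factor for each library near its depth, which allow levels to be compared between genes of different length.

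Oligodendrocytes wrap axons of the central nervous system in myelin, a stack of tightly packed membrane that speeds conduction, and they also supply the axon with metabolites. Mature cells transcribe genes for myelin structural proteins, for the enzymes of myelin lipids and for carriers and chaperones, under transcription factors such as Sox10, Olig2 and Myrf. Their precursors, which remain in the adult cortex, carry the surface proteins encoded by Pdgfra and Cspg4 and make little myelin. In the cortex, myelin is densest in the deep layers and in the white matter beneath them.

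The sequences just upstream of 4 members are shown because each of these genes passed the test between at least 1 pair of strains (values follow) and stand for a myelin surface protein (Mog), a myelin membrane protein (Mal), a secreted lipid carrier (Apod) and an actin-severing protein (Gsn). Each run is the 250 bases before the annotated start in RefSeq on GRCm38.p6, read 5′ to 3′ on the strand of the gene. Their positions are chr17:37023399-37023648 (minus strand) for Mog, chr2:127656696-127656945 (minus) for Mal, chr16:31314809-31315058 (minus) for Apod and chr2:35256109-35256358 (plus) for Gsn. Capitals mark matches to ACAANG, the core bound by SOX proteins, on either strand, or to the E-box CAGCTG, which reads the same on both strands.
Mog: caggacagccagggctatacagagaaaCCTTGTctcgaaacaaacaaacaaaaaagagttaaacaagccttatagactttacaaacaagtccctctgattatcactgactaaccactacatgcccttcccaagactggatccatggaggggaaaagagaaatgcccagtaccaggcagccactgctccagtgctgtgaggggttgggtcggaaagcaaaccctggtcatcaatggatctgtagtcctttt
Mal: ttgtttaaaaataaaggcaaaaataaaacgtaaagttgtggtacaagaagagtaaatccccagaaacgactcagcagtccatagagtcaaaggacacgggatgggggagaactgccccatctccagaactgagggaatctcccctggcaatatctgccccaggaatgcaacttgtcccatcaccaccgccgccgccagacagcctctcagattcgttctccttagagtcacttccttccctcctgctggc
Apod: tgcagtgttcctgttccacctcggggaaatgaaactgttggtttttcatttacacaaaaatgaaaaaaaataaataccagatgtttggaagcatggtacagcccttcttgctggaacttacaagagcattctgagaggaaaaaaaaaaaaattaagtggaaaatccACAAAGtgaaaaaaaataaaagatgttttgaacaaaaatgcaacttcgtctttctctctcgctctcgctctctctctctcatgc
Gsn: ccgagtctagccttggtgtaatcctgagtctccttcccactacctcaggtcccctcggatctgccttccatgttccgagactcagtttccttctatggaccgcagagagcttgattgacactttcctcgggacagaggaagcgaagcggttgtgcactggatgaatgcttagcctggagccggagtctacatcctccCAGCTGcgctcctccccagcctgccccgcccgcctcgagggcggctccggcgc
Mog and Apod each hold 1 match to ACAANG, Gsn holds 1 match to CAGCTG and Mal holds neither. Where a gene had more than 1 RefSeq entry, as Gsn with 3, the window nearest its start in the expression table was used. RefSeq windows were found for 23 of the 34 members, and 11 of these 23 (47.8%) contain ACAANG, against 36.3% of 32851 windows of the same length over all genes. Mobp has the most, with 6 matches. The E-box occurs in 2 of the 23 (8.70%), those of Aspa and Gsn, against 13.0% of all windows. The 2 motifs cannot overlap each other, and a match describes letters in this window and no binding. Evi2a, Fa2h, Cryab, Myrf, Bcas1, Car2, Olig1, Sox10, Mbp, Trf and Enpp2 had no entry.

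All 34 members were expressed in every mouse, from 1.07 FPKM (Cspg4, a proteoglycan of precursors) to 387 FPKM (Mbp, myelin basic protein), and rested on 95 to 63155 reads per gene and mouse. Library depth was 16317439 to 17784118 reads for WSB, 17651630 to 21562429 for B6 and 19042306 to 19433751 for C3H. Neuron markers, summed over 8 genes, stayed between 938 and 1103 FPKM in the 9 libraries. Markers of neighbouring regions were less even. The striatum lies under the cortex, and its 5 markers (Drd1, Drd2, Adora2a, Rgs9 and Ppp1r1b) summed to 323, 178 and 77.7 FPKM in B6 mice 1 to 3, to 152, 74.8 and 222 in C3H and to 51.7, 117 and 158 in WSB. Choroid plexus markers (Ttr, Kl, Folr1, Clic6, Kcnj13 and Aqp1) summed to 66.8, 764 and 64.7 FPKM in B6, 92.4, 447 and 657 in C3H and 536, 468 and 604 in WSB. No marker of either list was at 0 in any library. Between each pair of strains 0 markers of either list passed by limma, 0 had an unadjusted p under 0.05 and 0 were called by voom. Their part in the results that follow was not tested other than by the fits named beside them.

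**Figure D1:**
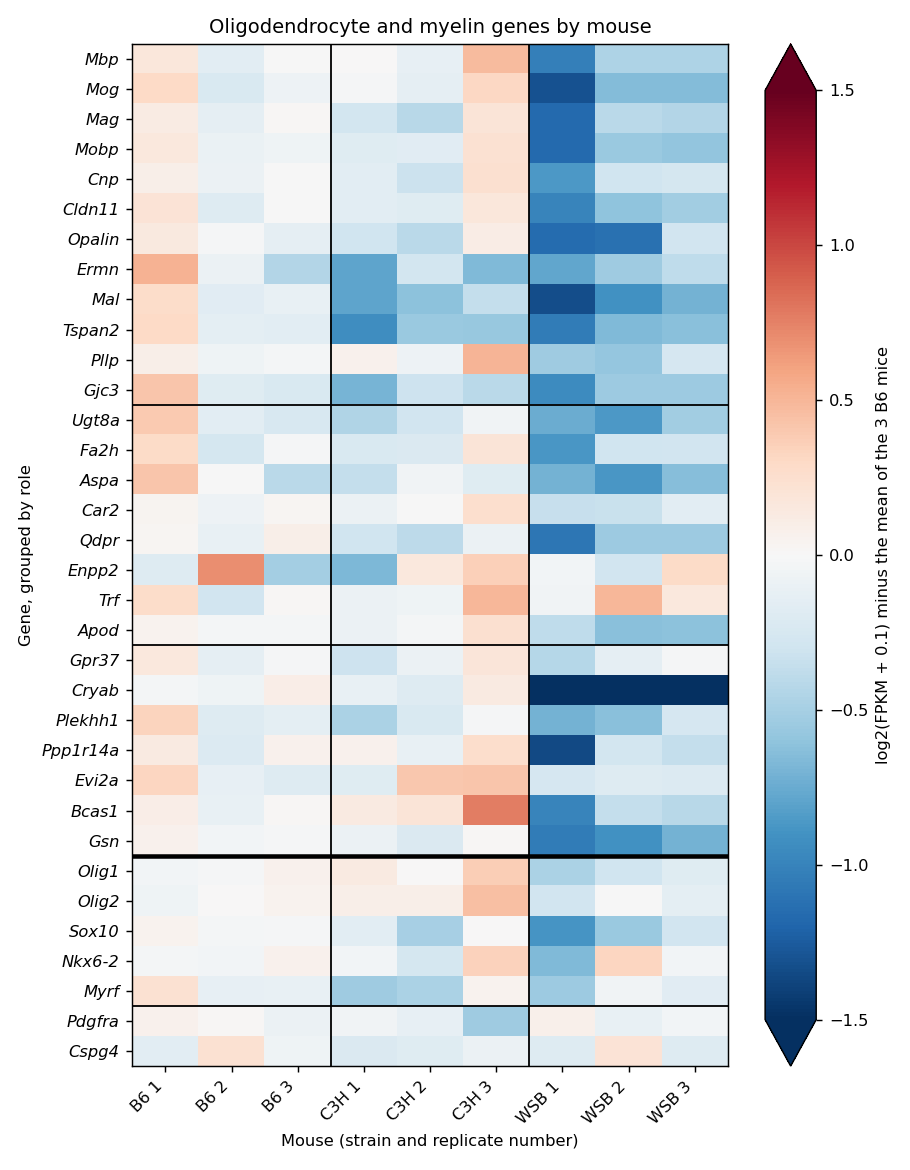
Level of the 34 members (lines, grouped by role, mature genes above the thick line) in each of the 9 mice (columns), as log2(FPKM + 0.1) minus the mean of the 3 B6 mice, with blue for lower and red for higher; the color scale stops at 1.5 on either side. WSB mouse 1 is the lowest of all 9 mice for 20 of the 27 mature genes, and the lineage and precursor genes below the line are paler.

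The comparison of WSB with B6 asked which of these genes differ between the 2 strains. Of the members, 8 passed the test and all 8 were lower in WSB, each of them a mature gene; the other 19 mature genes and the 7 lineage and precursor genes did not pass. Across all 20746 genes tested, 5.9% were called and 3.09% were called lower in WSB. In 24 of the 34 members, all 3 WSB mice lay below all 3 B6 mice, against 13.1% of all genes; these were 22 of the 27 mature genes and 2 of the 7 lineage and precursor genes. The log2 fold change was below 0 for 33 of the 34 (49.7% of all genes), with Trf the exception. Its median was -0.66 over the mature genes (1.58-fold lower), -0.15 over the lineage and precursor genes (1.11-fold lower) and 0.00 over all genes. The lineage and precursor median was -0.079 without WSB mouse 1 and -0.33 without WSB mouse 2. The test was limma on log2(FPKM + 0.1), two-sided, with adjustment by Benjamini-Hochberg over all genes tested and a threshold of 0.05, and every limma adjusted p given here comes from it. In a bulk sample, fewer cells of a type and less RNA per cell cannot be told apart.

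Among proteins of compact myelin and of its adhesion, 4 of 12 passed the test in WSB against B6, all lower, and the log2 fold changes of all 12 lay between -0.98 and -0.45. Mal, a proteolipid of myelin membrane, measured 97.0, 70.9 and 74.0 FPKM in B6 mice 1 to 3 and 31.7, 42.5 and 48.7 in WSB. The 2 strains did not overlap, and the log2 fold change was -0.98 (SE 0.18, limma adjusted p = 0.021). Tspan2, a tetraspanin of the myelin sheath, measured 30.5, 22.3 and 22.1 FPKM in B6 and 11.9, 15.6 and 15.9 in WSB. Here too every WSB mouse was below every B6 mouse, with a log2 fold change of -0.78 (SE 0.16, limma adjusted p = 0.034). Mobp, a basic protein of compact myelin, had 126, 106 and 108 FPKM in B6 and 50.5, 76.6 and 74.9 in WSB, a log2 fold change of -0.77 (SE 0.17, limma adjusted p = 0.040). Cldn11, the claudin of myelin tight junctions, had 88.5, 67.0 and 76.6 FPKM in B6 and 38.6, 50.7 and 53.7 in WSB, a log2 fold change of -0.70 (SE 0.15, limma adjusted p = 0.038). For both genes the lowest mouse was WSB mouse 1.

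The other 8 genes of this group did not pass, although their values ran the same way. Mog, a glycoprotein on the outer face of myelin, measured 49.9, 34.7 and 38.4 FPKM in B6 and 16.4, 25.8 and 25.8 in WSB, a log2 fold change of -0.87 (SE 0.21, limma adjusted p = 0.056). Mbp, the most abundant member, measured 313, 249 and 278 FPKM in B6 and 137, 203 and 202 in WSB, a log2 fold change of -0.65 (SE 0.17, limma adjusted p = 0.073). The strains did not overlap for either gene. The remaining 6 were Mag, Cnp, Opalin, Ermn, Pllp and Gjc3, and only Ermn overlapped between the strains, at 7.02 to 13.8 FPKM in B6 and 5.53 to 7.30 in WSB.

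Of the 8 lipid enzymes, metabolic enzymes and secreted carriers, 2 passed, both lower in WSB. Apod, a secreted carrier of small lipids, lies at chr16:31296192-31314808 and measured 65.1, 61.5 and 61.6 FPKM in B6 and 48.0, 40.4 and 41.0 in WSB. It differed by a log2 fold change of -0.54 (1.46-fold lower, SE 0.08, limma adjusted p = 0.011), a small change with little spread in either strain. Qdpr, which regenerates the tetrahydrobiopterin cofactor, measured 90.2, 82.1 and 93.8 FPKM in B6 and 41.6, 60.9 and 60.8 in WSB. Its log2 fold change was -0.72 (SE 0.15, limma adjusted p = 0.037). Ugt8a and Fa2h, enzymes of galactosylceramide and of its hydroxylated form, Aspa, which cleaves N-acetylaspartate, and Car2, a carbonic anhydrase, all lay wholly below B6 in WSB without passing, with log2 fold changes of -0.71, -0.49, -0.74 and -0.28.

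Enpp2 and Trf stood apart from the rest of that group. Enpp2 encodes autotaxin and is also made by the choroid plexus. It measured 39.9, 74.2 and 31.9 FPKM in B6, 28.6, 50.95 and 58.4 in C3H and 44.1, 37.3 and 55.7 in WSB, so the strains overlapped fully. Within each strain its order over the 3 mice was that of Ttr, the leading choroid plexus transcript, which measured 62.5, 749 and 61.8 FPKM in B6, 88.6, 440 and 644 in C3H and 528, 461 and 593 in WSB. Trf, the iron carrier transferrin, measured 4.996, 3.36 and 4.17 FPKM in B6 and 3.97, 5.86 and 4.60 in WSB (log2 fold change 0.20, SE 0.19). Of the exon bases of Trf, 63.5% are shared with Gm20425 on the same strand, which is listed at 0 in every mouse, so the count of Trf reads is uncertain.

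The remaining mature genes are a mixed group of 7, and it holds the most extreme member. Cryab encodes alpha B-crystallin, a small heat shock protein that oligodendrocytes and astrocytes make, and lies at chr9:50751325-50756636. It measured 67.0, 65.5 and 73.8 FPKM in B6 and 8.17, 14.3 and 10.7 in WSB. The strains were far apart, and Cryab was 6.33-fold lower in WSB (log2 fold change -2.66, SE 0.18, limma adjusted p = 0.00023), the largest difference among the 34 members. Gsn, gelsolin, which severs actin filaments and lies at chr2:35256380-35307892, measured 26.1, 24.3 and 24.6 FPKM in B6 and 12.1, 13.3 and 15.3 in WSB. It was 1.85-fold lower (log2 fold change -0.89, SE 0.10, limma adjusted p = 0.0022). Bcas1, a marker of newly myelinating cells, Ppp1r14a, an inhibitor of myosin phosphatase, and Plekhh1 lay wholly below B6 without passing, with log2 fold changes of -0.59, -0.66 and -0.53. Gpr37, a receptor of oligodendrocytes, and Evi2a overlapped between the strains, with log2 fold changes of -0.19 and -0.22.

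Cryab shares exon bases with Hspb2, a small heat shock gene on the opposite strand: 252 bases, 17.0% of Cryab. Whether counting used the strand is not given in the sources used here. Hspb2, looked at after its values were seen, had 0 reads in each of the 3 WSB mice, between 2 and 7 in B6 mice and between 6 and 20 in C3H mice, against at least 201 reads for Cryab in every mouse.

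**Figure D2:**
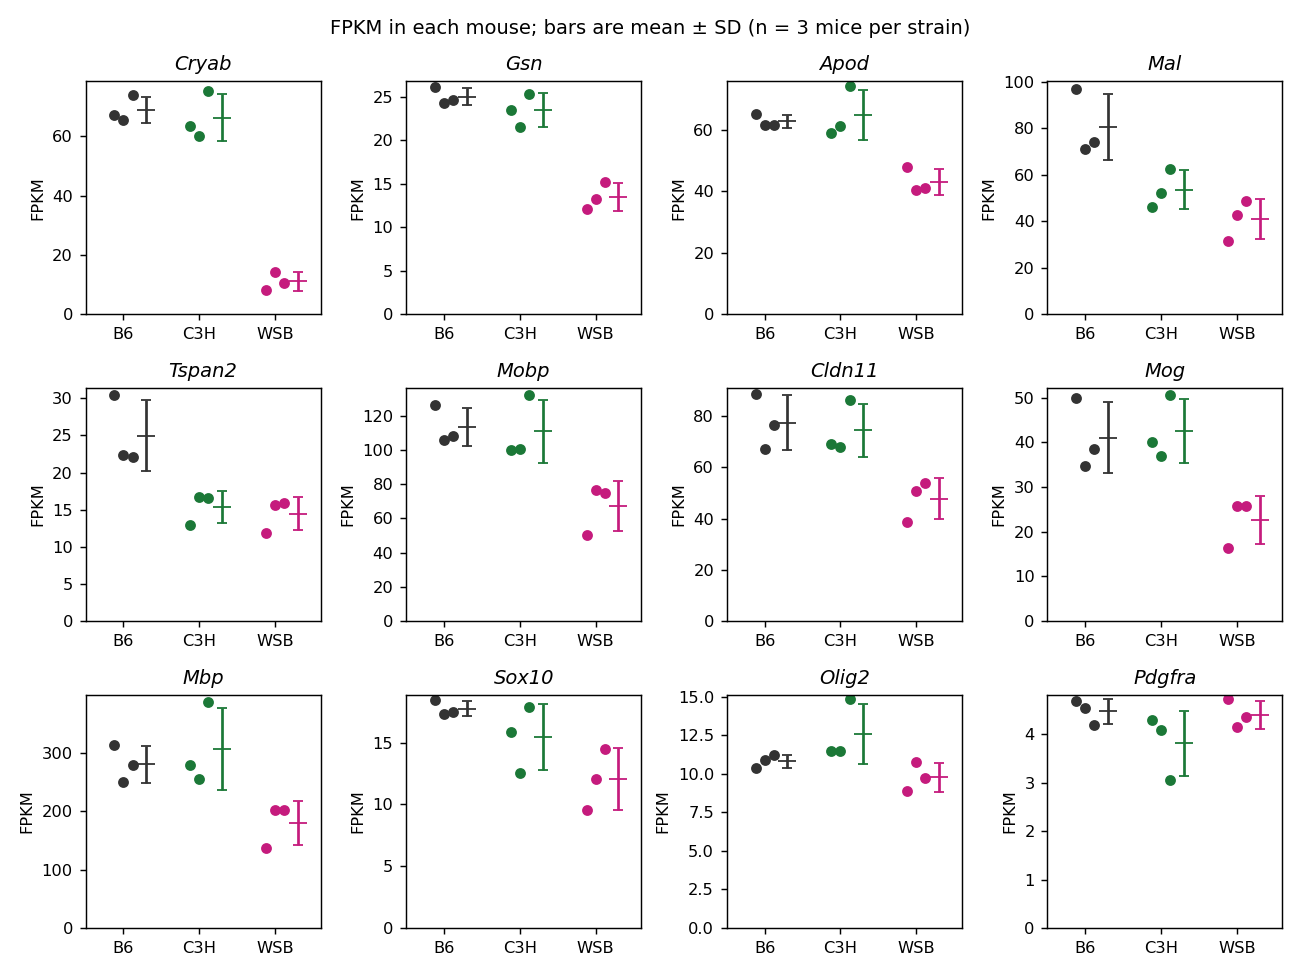
FPKM of 12 members in each mouse (points), with the mean and SD of each strain (bars, n = 3 mice). Cryab, Gsn, Apod, Mobp, Cldn11, Mog and Mbp separate WSB from both other strains, Mal and Tspan2 separate B6 from both, and Olig2 and Pdgfra overlap between B6 and WSB.

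The lineage and precursor genes showed smaller differences, and 0 of the 7 passed in WSB against B6 by limma, with 2 at an unadjusted p under 0.05 and 1, Sox10, called by voom. Those 2 were the transcription factors Sox10 and Olig1. Over all 20746 genes tested, 4235 had an unadjusted limma p under 0.05 and voom called 1541. Sox10 was also called over protein-coding genes alone, and both factors were called with the GC trend removed. Sox10, a factor under which mature cells transcribe myelin genes, measured 18.4, 17.3 and 17.5 FPKM in B6 and 9.54, 12.1 and 14.5 in WSB (log2 fold change -0.58, SE 0.14, limma adjusted p = 0.065). Olig1, a basic helix-loop-helix factor of the lineage, measured 54.4, 55.5 and 58.7 FPKM in B6 and 40.4, 45.5 and 49.3 in WSB (log2 fold change -0.32, SE 0.09, limma adjusted p = 0.082). In both, each WSB mouse was below each B6 mouse. Olig2, which specifies the lineage, overlapped at 10.4 to 11.2 FPKM in B6 and 8.87 to 10.8 in WSB. Nkx6-2 and Myrf, factors of the maturing cell, overlapped as well, with log2 fold changes of -0.13 and -0.25.

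Both precursor genes were near the same level in WSB and B6. Pdgfra, the growth factor receptor of precursors, measured 4.70, 4.54 and 4.19 FPKM in B6 and 4.72, 4.14 and 4.36 in WSB, a log2 fold change of -0.02 and a 95% interval from -0.25 to 0.20. Cspg4 measured 1.11, 1.48 and 1.20 FPKM in B6 and 1.09, 1.46 and 1.08 in WSB, a log2 fold change of -0.06 and an interval from -0.50 to 0.38. Cspg4 rested on 216 to 357 reads per mouse. No test of the difference between the mature set and the lineage and precursor set was made.

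**Figure D3:**
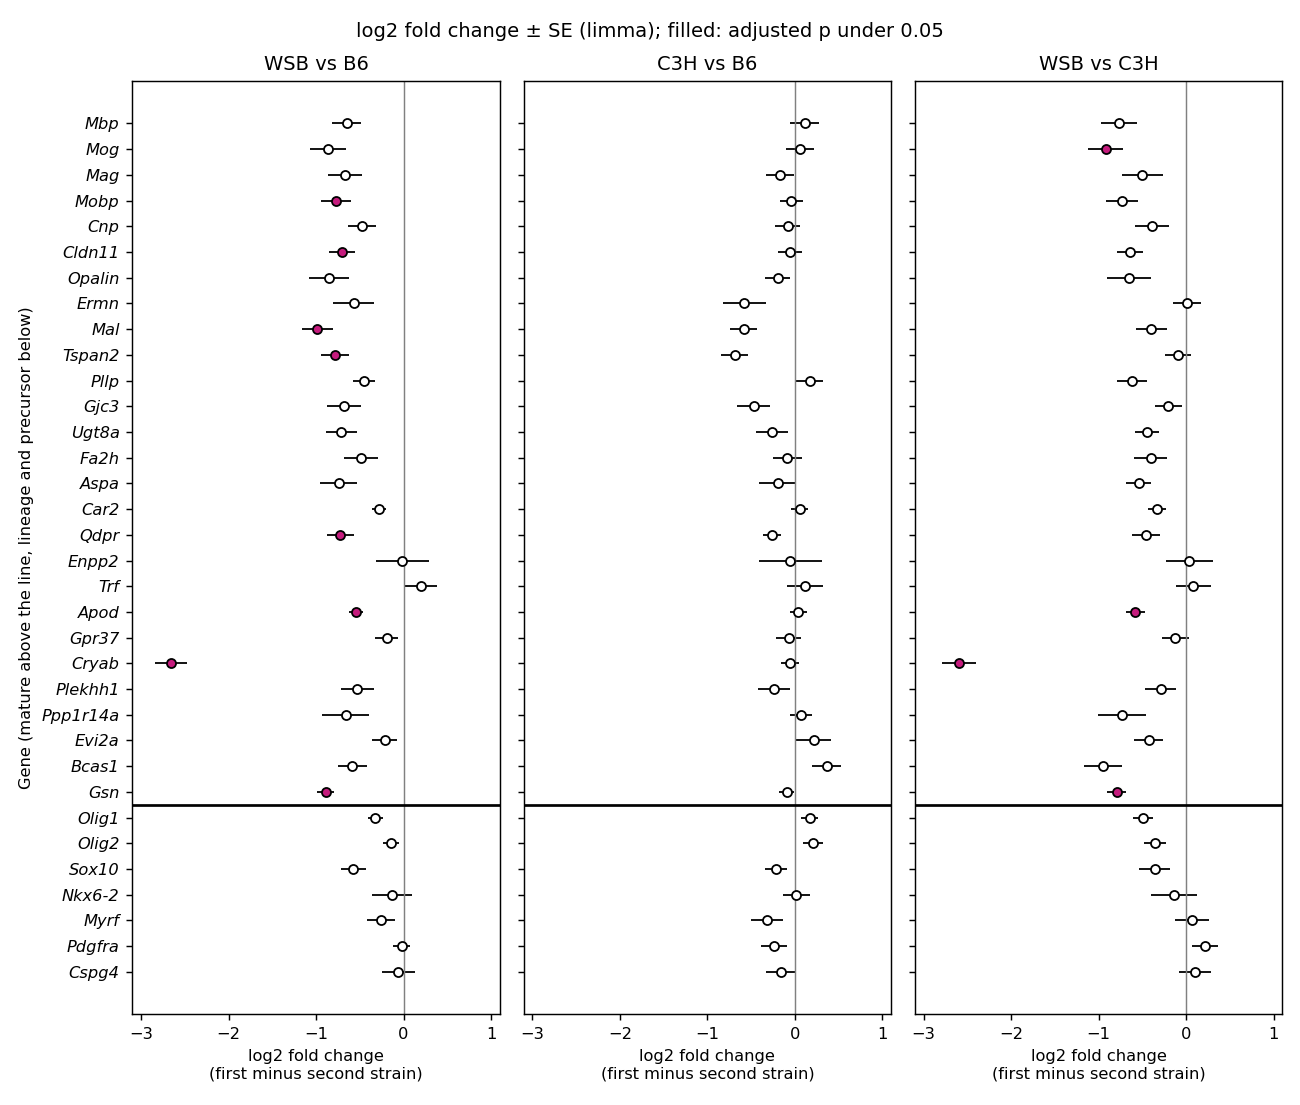
Log2 fold change of each member (points) with its SE (bars) in WSB against B6, C3H against B6 and WSB against C3H, negative where the first strain is lower; filled points have an adjusted p under 0.05 by limma. In WSB against B6 the mature genes center on -0.66 and the genes under the line on -0.15, and in C3H against B6 no point is filled.

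The calls in WSB against B6 differed in how often they passed when 1 mouse was left out. Such fits hold fewer mice and called 651 to 825 of all genes, against 1224 with no mouse left out. A lost call therefore does not show that it rested on the mouse left out. Apod, Cryab and Gsn passed in all 6 fits that each left out 1 mouse. Without B6 mouse 1, 2 or 3 or WSB mouse 2, these 3 were the only members called. Without WSB mouse 1 there were 6 calls, with Mal, Mobp and Qdpr kept, and without WSB mouse 3 there were also 6, with Mal kept and Opalin and Sox10 added. With the summed striatum marker level as a covariate, 5 members passed (Apod, Cryab, Gsn, Mal and Tspan2), and with the choroid plexus level as a covariate 2 passed (Cryab and Gsn). Both covariates were chosen after seeing the data.

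The mature genes tended to rank the mice of a strain alike. Their summed level was 1388, 1190 and 1236 FPKM in B6 mice 1 to 3, 1115, 1111 and 1484 in C3H and 649, 858 and 897 in WSB. B6 mouse 1 had the highest value of its strain for 24 of the 27 mature genes, C3H mouse 3 for 23, and WSB mouse 1 had the lowest of its strain for 22. WSB mouse 1 was also the lowest of all 9 mice for 20 of the 27. The ranking was not particular to these genes. Of the 5 lineage transcription factors, B6 mouse 1 was highest of its strain for 2, C3H mouse 3 for 5, and WSB mouse 1 was lowest for 5. The same counts were 1, 1 and 0 for the 2 precursor genes and 15, 22 and 19 for 24 other mature genes. B6 mouse 1, C3H mouse 3 and WSB mouse 1 also had the highest, highest and lowest striatum marker sum of their strain. The part of the striatum in this was tested only by the covariate above. Without both WSB mouse 1 and B6 mouse 1, chosen after seeing the data, 6 members were called in WSB against B6: Apod, Cryab, Gsn, Mal, Mobp and Tspan2. In that fit the median log2 fold change was -0.37 over the mature genes, against -0.66 with all mice, and -0.075 over the lineage and precursor genes. The lineage and precursor genes summed to 101, 100.3 and 104 FPKM in B6, 103, 94.4 and 122 in C3H and 71.9, 86.4 and 89.4 in WSB, where Olig1 makes up most of the total.

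**Figure D4:**
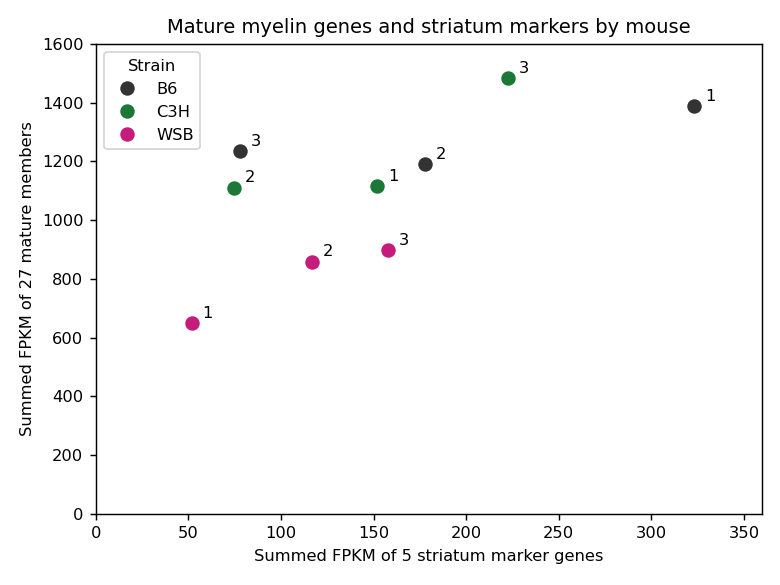
Summed FPKM of the 27 mature genes (vertical axis) against summed FPKM of 5 striatum markers (horizontal axis) in each of the 9 mice, numbered by replicate. The 3 WSB mice hold the lowest mature sums, 649 to 897 FPKM, at striatum sums of 51.7 to 158 FPKM, a range that also holds B6 mouse 3 (77.7 FPKM, mature sum 1236) and C3H mice 1 and 2.

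C3H against B6 gave a different picture, and it shares the 3 B6 mice with the comparison above. By limma 0 of the 34 members passed, and 4.64% of 20602 genes were called in either direction. An unadjusted limma p under 0.05 was reached by 5 of the members and by 4972 of the 20602 genes. Voom called 2 of the members and 1488 of all genes. The median log2 fold change was -0.07 over the mature genes and -0.16 over the lineage and precursor genes, and the strains overlapped for 29 of the 34. All 3 C3H mice lay below all 3 B6 mice for 3 members (14.0% of all genes), and above them for 2 (14.9%).

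Tspan2 and Mal came closest to the threshold. Tspan2 measured 12.9, 16.7 and 16.5 FPKM in C3H, with a log2 fold change against B6 of -0.69 (SE 0.16, limma adjusted p = 0.053). Mal measured 46.0, 52.3 and 62.6 FPKM in C3H, with a log2 fold change of -0.59 (SE 0.15, limma adjusted p = 0.080). These are the 2 members that voom called. Cryab, by contrast, measured 63.5, 59.9 and 75.2 FPKM in C3H, overlapping B6, with a log2 fold change of -0.06 and a 95% interval from -0.30 to 0.18. Gsn measured 23.5, 21.5 and 25.4 FPKM in C3H, with a log2 fold change of -0.09 and an interval from -0.29 to 0.10. Apod measured 58.8, 61.3 and 74.1 FPKM, with a log2 fold change of 0.04 and an interval from -0.19 to 0.27.

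WSB against C3H gave 4 calls among the members, all mature and all lower in WSB, where 5.74% of 20607 genes were called and 3.13% were called lower. Cryab was 6.07-fold lower in WSB (log2 fold change -2.60, SE 0.19, limma adjusted p = 0.00044). Gsn differed by a log2 fold change of -0.79 (SE 0.11, limma adjusted p = 0.0072) and Apod by -0.58 (SE 0.11, limma adjusted p = 0.028). The fourth was Mog, at 40.1, 36.9 and 50.5 FPKM in C3H and the WSB values given above (log2 fold change -0.92, SE 0.20, limma adjusted p = 0.041). WSB lay wholly below C3H for 18 of the 34 members (14.4% of all genes), with a median log2 fold change of -0.46 over the mature genes and -0.14 over the lineage and precursor genes. With the GC trend removed these medians were -0.55 and 0.013. Over the genes tested, the Spearman correlation of log2 fold change with transcript GC was -0.26 here. It was 0.34 in C3H against B6 and 0.07 in WSB against B6. Cldn11 just missed (-0.65, SE 0.15, limma adjusted p = 0.0502), and Olig1 reached -0.49 (SE 0.12, limma adjusted p = 0.054), at 61.4, 56.5 and 72.5 FPKM in C3H.

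Mal and Tspan2 did not share the pattern of Cryab. In WSB against C3H their log2 fold changes were -0.40 and -0.09 with limma adjusted p of 0.22 and 0.74, and their values overlapped between these 2 strains. Cryab and Gsn passed in all 6 fits without 1 mouse of either strain. Among these fits, Apod was lost without C3H mouse 1 or 3 or WSB mouse 2 or 3, and Mog was kept only without C3H mouse 2. With the striatum covariate 8 members were called. Apod was lost, Cryab, Gsn and Mog were kept, and Bcas1, Cldn11, Mbp, Mobp and Olig1 were added. Evi2a was called without C3H mouse 1, Olig1 without C3H mouse 2 and Opalin without WSB mouse 3.

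Set in order over the 3 strains, WSB had the lowest mean for 29 of the 34 members, among them 25 of the 27 mature genes and 4 of the 5 transcription factors. B6 had the highest mean for 18 mature genes and C3H for 8. For the precursor genes the order was different, with C3H lowest for both Pdgfra (3.81 ± 0.66 FPKM, SD, n = 3) and Cspg4 (1.11 ± 0.06), and neither gene passed in any comparison. For Cryab the means were 68.8 ± 4.39 FPKM in B6, 66.2 ± 7.97 in C3H and 11.1 ± 3.07 in WSB, and B6 and C3H did not differ beyond their spread.

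Other genes of the same cells, not among the 34, were read from 2 lists. Of 24 other mature genes, 5 passed in WSB against B6, all lower in WSB, 0 passed in C3H against B6 by limma (4 at an unadjusted p under 0.05, 0 by voom) and 3 passed in WSB against C3H, all lower in WSB. Their median log2 fold changes were -0.30, -0.11 and -0.24. Adamts4, a protease of the extracellular matrix, had the most negative log2 fold change of the list against B6, at 5.17, 3.61 and 3.78 FPKM in B6, 2.45, 2.20 and 3.33 in C3H and 0.84, 1.08 and 1.19 in WSB. The 3 strains did not overlap, and WSB was 3.75-fold lower than B6 (log2 fold change -1.91, SE 0.19, limma adjusted p = 0.0015) and 2.41-fold lower than C3H (log2 fold change -1.27, SE 0.21, limma adjusted p = 0.015). Lpar1, a receptor for the lipid that autotaxin makes, and Tmem88b also passed in both, with log2 fold changes of -0.75 and -0.92 against B6 and -0.52 and -0.74 against C3H. Nipal4 and Tmem125 passed against B6 only (-1.21 and -0.65), which does not show that the comparisons differ.

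The 18 other lineage and precursor genes gave 1 call in WSB against B6, 2 in C3H against B6 and 1 in WSB against C3H, with median log2 fold changes of -0.18, -0.10 and -0.05. Over all genes tested, 5.9%, 4.64% and 5.74% were called in these comparisons, so the counts say little about the list. Matn4, a matrilin expressed by precursors, was higher in both strains than in B6, at 2.35, 2.68 and 2.97 FPKM in B6, 4.23, 4.17 and 4.53 in C3H and 4.95, 4.67 and 5.08 in WSB (log2 fold changes 0.68 and 0.86, limma adjusted p = 0.021 and 0.0058). Tnr, tenascin R of the extracellular matrix, was lower in C3H than in B6 (5.70, 5.70 and 5.35 against 9.75, 8.54 and 8.27 FPKM, log2 fold change -0.65, limma adjusted p = 0.0093). C1ql1, a secreted protein of precursors, was lower in WSB than in C3H (log2 fold change -0.65, limma adjusted p = 0.025). Neurons also express some genes of this list.

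Markers of other cell types were read in the same fits. In WSB against B6, 0 of 8 neuron, 6 astrocyte, 6 meningeal, 6 choroid plexus and 5 striatum markers passed by limma, with 2, 2, 0, 0 and 0 at an unadjusted p under 0.05 and 0 of any of them called by voom. All 5 striatum markers had a log2 fold change below 0 (median -0.72, from -0.78 to -0.65), a median near that of the mature genes. Of the 6 choroid plexus markers, 1 was below 0, with a median of 0.68. Of the 6 meningeal, 6 astrocyte and 8 neuron markers, 5, 4 and 5 were below 0, with medians of -0.39, -0.20 and -0.05. The microglial receptor gene Csf1r and the endothelial transporter gene Slco1a4 were lower (log2 fold changes -0.38 and -0.60), and of 5 red cell markers Hba-a1 was higher and Hbb-bt lower. Summed astrocyte markers, whose cells share Cryab with oligodendrocytes, ranged from 306 to 354 FPKM in WSB, 360 to 394 in B6 and 332 to 380 in C3H. Summed microglia markers ranged from 122 to 126 FPKM in WSB, 137 to 148 in B6 and 143 to 172 in C3H. In C3H against B6 the neuronal gene Syt1 was lower and 3 red cell markers were higher. In WSB against C3H Gfap, C1qa, Slco1a4 and 3 red cell markers were lower and Syt1 and Rgs5 higher. The part of any of these in the values of the 34 members was not tested.

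Several members share exon bases with a neighbour. Pllp shares 54.2% of its exon bases with the antisense gene Gm45767, Evi2a 19.2% with Evi2 on its own strand, Qdpr 18.6% with the antisense gene Gm42413, Plekhh1 14.8% with Pigh, Nkx6-2 12.9% with Inpp5a and Bcas1 11.7% with Bcas1os1. Except for Evi2, these neighbours lie on the opposite strand, where reads could be assigned to either gene if counting did not use the strand. Of these 6 members, Qdpr was the 1 that passed in a comparison.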

How the data were processed

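Brain cortex RNA of 9 mice was sequenced in paired-end mode. The authors trimmed the reads with Cutadapt and counted them per gene with HTSeq, the labels also name STAR and DESeq2, and the deposited values are FPKM; versions and genome build are not given in the sources used here. Of the 54532 gene identifiers, 53499 had the same coordinates in GENCODE M21 (GRCm38). Multiplied by gene length, each library's FPKM fell on whole steps (tolerance 0.01), and these steps gave the reads used for depth and for voom. The library factor in these steps was near the depth but did not follow it exactly. It was 21310236 for 21562429 reads in B6 mouse 3 and 18267583 for 17784118 reads in WSB mouse 3. Because the unit is FPKM, strains were compared in pairs with limma 3.58.1 in R 4.3.3 (lmFit, eBayes with trend) on log2(FPKM + 0.1). Genes averaging 0.1 FPKM or more in the 6 mice compared were tested, and p-values were adjusted by Benjamini-Hochberg with 0.05 as the threshold. The pseudocount understates changes of low genes. The code was tested on simulated data.

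The members, role groups and marker lists were chosen with earlier results of these data known. Named genes were members and genes of the other oligodendrocyte lists past the threshold in any comparison, the 2 genes with the smallest p in role groups with none, and other-cell markers past the threshold; Mbp, Enpp2, Ttr, Trf and Hspb2 were named after their values were seen. Of the marker lists, 2 genes are not reported here. Replicate numbers did not pair the mice. Alternatives were a joint fit of all 3 strains, rescaling by median ratios, other pseudocounts (1 and 0.01), other filters (none, or 1 FPKM), no trend, voom, a replicate block, GC correction with a lowess span of 0.3, protein-coding genes alone and leaving out each mouse.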

Additional observations from a re-analysis of the deposited data

How the results depend on the processing

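Either other pseudocount called the same members as reported in each comparison. Median-ratio rescaling did so too, but its factor was 1.009 in every library. It divided all values alike and could hardly change a call, so it says nothing about the scaling. In WSB against B6, 8 members became 4 with no filter on low values, 2 without the eBayes trend, 16 with voom, 13 over protein-coding genes, 5 with the striatum and 2 with the choroid plexus covariate, and 3 to 6 with each mouse left out. With the GC trend removed there were 12, among them Olig1 and Sox10. In C3H against B6, 0 became 1 with a filter of 1 FPKM or all 3 strains in one fit and 2 with voom or over protein-coding genes, and 0 to 1 with each mouse left out. In WSB against C3H, 4 became 7 with a filter of 1 FPKM, 10 with all 3 strains or voom, 2 without the trend, 8 with the GC trend removed, 9 over protein-coding genes, 8 with the striatum covariate, and 2 to 5 with each mouse left out. Fewer genes were tested with a filter or over protein-coding genes, and fewer mice when any was left out; the cause was not tested for the others.

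Over all genes, calls in WSB against B6 went from 1224 to 792 and 399 with the striatum and choroid plexus covariates, 439 without WSB mouse 1 and B6 mouse 1, and 651 to 825 with each mouse left out. In C3H against B6 they went from 956 to 1488 with voom, 516 with the choroid plexus covariate and 498 to 2301 with each mouse left out. In WSB against C3H they went from 1182 to 546 with the choroid plexus covariate and 475 to 2002 with each mouse left out. The highest counts, 2301 and 2002, came without C3H mouse 2.

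Same-numbered mice deviated with correlations from -0.06 to 0.05, so the numbers do not pair them. With the replicate number as a block, 3, 0 and 4 members and 754, 480 and 531 genes were called in WSB against B6, C3H against B6 and WSB against C3H. In the last, Cryab and Gsn were kept, Apod and Mog were lost, and Bcas1 and Cldn11 were added.

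Some small log2 fold changes turned direction. In WSB against B6, Enpp2 went to 0.0087 with the GC trend removed and 0.12 with the striatum covariate, and without WSB mouse 1 and B6 mouse 1 Nkx6-2 went to 0.13 and Myrf to 0.010. In C3H against B6, Olig1 went to -0.0082 with the GC trend removed. With each mouse left out, WSB against B6 ranged from -0.27 to 0.34 for Enpp2, -0.35 to 0.14 for Nkx6-2, -0.072 to 0.020 for Pdgfra and -0.19 to 0.051 for Cspg4. C3H against B6 ranged from -0.075 to 0.21 for Mog, -0.17 to 0.039 for Mobp, -0.17 to 0.046 for Cldn11, -0.063 to 0.10 for Apod and -0.15 to 0.0087 for Cryab. WSB against C3H ranged from -0.21 to 0.042 for Tspan2 and -0.032 to 0.17 for Cspg4. The median of the lineage and precursor genes in WSB against C3H was 0.013 with the GC trend removed and 0.057 with the striatum covariate, and ranged from -0.37 to 0.12 with each mouse left out, the last without WSB mouse 1. That of the mature genes in C3H against B6 ranged from -0.20 to 0.0079, the last without B6 mouse 1. None of these gene values passed the test as reported. Depth limited Pllp and Nkx6-2 most, with as few as 95 and 114 reads in a mouse.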
